A study of Homo sapiens with 18 samples.

Results

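U87 mg, an established human glioblastoma line, was compared after 8 h and after 2 h in a 250 V/m direct-current electrical field (dcEF). The 6 samples of this comparison, 3 at 2 h and 3 at 8 h, were taken from their labels and are 6 of the 18 RNA-seq samples of the series. The other 12 samples were 3 U87 mg samples collected at 0 h, without a field, and 9 samples of DAOY, a medulloblastoma line, at the same 3 times. In every group the cells were grown as spheroidal aggregates in medium mixed with growth-factor-reduced Matrigel inside channels and were left to settle before the field was applied. Each sample pooled the RNA of 3 channels. The study kept the 3 biological replicates of best quality out of 4, except in DAOY at 8 h, where there were only 3. No U87 mg sample was held for 2 h or 8 h without a field, so the duration of the field and the time spent in the channel cannot be told apart.

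Electrotaxis is the directed movement of cells along an electric field. Cells under a sustained stimulus commonly respond in waves: immediate early genes such as EGR1, which need no new protein to be transcribed, rise and fall first, and genes that depend on newly made regulators, on splicing and export of their RNA or on accumulated stress follow later. The comparison of 8 h with 2 h therefore asks which transcripts moved late, and whether early differences from 0 h had returned. The integrated stress response, in which phosphorylation of the initiation factor eIF2 favours translation of the transcription factor ATF4, and the heat shock response, driven by HSF1, are 2 general stress programmes with well-known targets. In bulk RNA, more RNA per cell and more cells with that RNA cannot be told apart.

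The libraries held 8341976 to 10530470 estimated counts at 2 h, 10871201 to 14767816 at 8 h and 10690206 to 15610886 at 0 h. Correlations of log2 CPM, counts scaled to library size, were 0.979 to 0.984 within 2 h, 0.978 to 0.983 within 8 h and 0.962 to 0.980 between the times. Of the U87 mg marker genes, VIM was at 3997 to 5245 TPM, abundance scaled to transcript length and library size, CD44 at 2565 to 3547, FN1 at 755 to 1407, TNC at 363 to 460 and NES at 5.58 to 9.25 TPM over the 6 samples, and none of these passed the test between 8 h and 2 h. Many markers of other cell types were near 0: PTPRC, AIF1 and CD14 of macrophages, VWF, CDH5 and CLDN5 of endothelium, OLIG1 and OLIG2 of the oligodendrocyte lineage, RBFOX3 and STMN2 of neurons, and CDH1 and KRT5 of epithelium were each under 1 TPM in all 6 samples. The astrocyte marker GFAP was at 0.34 to 1.71 TPM, and AQP4 was at 0. Other members of these lists were higher: SLC1A3 of astrocytes was at 34.4 to 53.1 TPM, TUBB3, SNAP25 and SYT1 of neurons at 26.4 to 39.2, 15.5 to 31.0 and 4.29 to 9.27, CSF1R of macrophages at 3.69 to 7.74, KRT8 and EPCAM of epithelium at 0.74 to 2.99 and 0.49 to 2.44, PECAM1 of endothelium at 0.60 to 1.93 and MBP of oligodendrocytes at 0.59 to 1.25 TPM. The neuron list summed to 54.5 to 65.7 TPM at 2 h and 55.3 to 74.3 TPM at 8 h, and the astrocyte list to 34.9 to 49.5 and 38.96 to 54.1 TPM. No marker that was tested passed between 8 h and 2 h.

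The 30 bases around a known regulatory element in 4 genes that passed the test are shown because each window holds the letters of a different well-known element, the CRE and ATF4 composite element (CHAC1), an NF-kB site (CXCL2), the heat shock element (CHORDC1) and the cAMP response element (ZNF143). They are RefSeq sequences of GRCh38.p14 on the strand of the gene, within 250 bases before the RefSeq start, and the capitals mark the element.
CHAC1: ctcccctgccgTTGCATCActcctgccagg
CXCL2: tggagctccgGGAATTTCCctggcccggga
CHORDC1: cgaccgGAAAATTCgcGAAGGTTCctgaaa
ZNF143: tcaggcttggcTGACGTCAgttgagtgggc

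The CHAC1 stretch (chr15:40953251-40953280, plus strand) holds TTGCATCA, the reverse strand of the CRE and ATF4 composite element TGATGCAA, 209 to 202 bases before the start. That of CXCL2 (chr4:74099253-74099282, minus strand) holds the NF-kB site core GGAATTTCC 77 to 69 bases before the start. The CHORDC1 stretch (chr11:90223086-90223115, minus strand) holds 2 of the 3 matches to the heat shock element core GAANNTTC in its window, at 60 to 53 and 50 to 43 bases before the start, and that of ZNF143 (chr11:9460837-9460866, plus strand) holds the cAMP response element TGACGTCA at 164 to 157 bases. In GENCODE 29 all 4 positions also lie in the first exon of a longer transcript of the same gene. Both strands were searched in the 9770 of 14106 tested genes with a promoter sequence: TGATGCAA was found in 37 (0.379%), GGAATTTCC in 40 (0.409%), GAANNTTC in 408 (4.18%) and TGACGTCA in 284 (2.91%). Of 24 cytokine and NF-kB genes with a sequence 9 held GGAATTTCC (CXCL1, CXCL2, CXCL3, CXCL8, NFKB1, REL, NFKBIA, NFKBIZ and ICAM1), and of 34 stress response genes 2 held TGATGCAA (HERPUD1 and CHAC1). Of the 40 higher genes with a sequence, TGATGCAA was in 1 (2.5%), GGAATTTCC in 0, GAANNTTC in 2 (5%) and TGACGTCA in 2 (5%). Of the 41 lower genes, GGAATTTCC was in 2 (4.88%) and each of the others in 0. These shares were not tested, and the 4 genes shown were chosen for their letters. A match is a description of letters: binding was not measured, and a match does not place a gene in a response.

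Few genes passed between 8 h and 2 h at a false-discovery rate (FDR) of 0.05 in the main fit. In the same edgeR quasi-likelihood test 2753 genes (19.5%) had an unadjusted p under 0.05. The transcription factor ATF4 and its target CHAC1, the splicing factors LUC7L3 and KIAA0907, and the RNA export genes THOC6 and NXF1 were higher at 8 h. The chemokine CXCL2, cyclin E2 (CCNE2), the primase subunit PRIM1 and the intraflagellar transport gene TTC30A were lower. Of 14106 genes tested with edgeR's quasi-likelihood test over the 9 U87 mg samples, 116 passed at an adjusted p under 0.05, which is 0.822% of the genes tested. Of these, 52 (0.369%) were higher at 8 h and 64 (0.454%) were lower, and with upper-quartile in place of TMM scaling 43 were higher and 97 lower. When the log2 fold change also had to reach 1 in size, 56 genes (0.397%) passed, 19 (0.135%) higher and 37 (0.262%) lower. In every one of the 116 genes the 3 samples at 2 h and the 3 at 8 h did not overlap, as was so for 30.6% of all genes tested. The median log2 fold change was 0.85 in the higher genes, -1.03 in the lower genes and 0.04 in all genes tested. The calls lay close to the threshold: their adjusted p ranged from 0.0180 to 0.0480, and another 312 genes lay between 0.05 and 0.1.

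The number of calls depended on the samples in the fit. The labels number the replicates but state no pairing. Same-numbered 2 h and 8 h samples deviated together, while the 0 h samples were not checked for this. With the replicate number as a block 36 genes passed over the 9 samples, 25 of them among the 116. With this block over the 6 samples alone 2321 passed, 115 of them among the 116. Every time holds each replicate number, so the block over 9 samples leaves the estimated changes of these genes nearly unaltered. That all 116 genes kept their direction is therefore no support. The 91 genes that no longer passed had adjusted p-values of 0.0520 to 0.0840 with the block over 9 samples. The adjusted p with the block over 9 samples is given below for the genes that lost their call. With the block over the 6 samples alone these genes passed, except ENSAP2, which was not in that fit. Without any 1 of the 2 h libraries, or without 8 h replicate 0 or 2, no gene passed in the same edgeR test, with 1665 to 2454 genes at an unadjusted p under 0.05, and without 8 h replicate 1 there were 47. Without 0 h replicate 0, 1 or 2 there were 830, 52 and 33. The genes below are ordered by what they are known to do, an order made after their values were seen, and no enrichment of any role was tested. A value given for a gene with no unit is its log2 fold change between 8 h and 2 h.

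**Figure D1:**
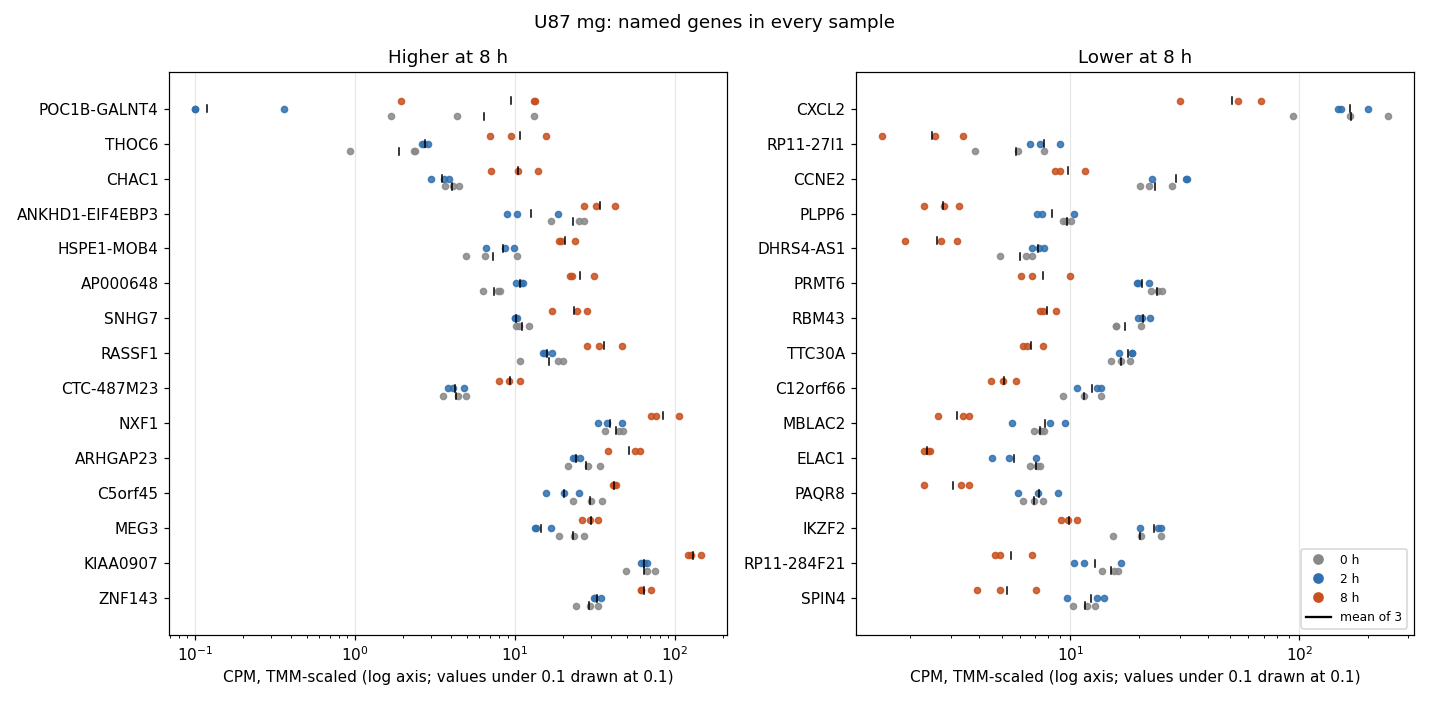
Level of the 15 higher (left) and 15 lower (right) named genes in each of the 9 U87 mg samples, in TMM-scaled CPM on a log axis, with values under 0.1 drawn at 0.1; points are samples (0 h grey, 2 h blue, 8 h orange) and short bars the means of 3. In every row the orange points lie apart from the blue ones, as the choice of these genes required, and the grey points mostly lie beside the blue ones.

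Stress genes were the first group among the higher genes. CHAC1 on chromosome 15 (40952962 to 40956519, plus strand) encodes an enzyme that degrades glutathione, and its start carries the composite element printed above. Its level was 3.58, 3.89 and 3.00 CPM at 2 h and 13.9, 7.05 and 10.5 CPM at 8 h (log2 fold change 1.58, SE 0.27, adjusted p = 0.0349). All 3 samples at 8 h lay above all at 2 h, which was a condition of naming. The 0 h samples, at 3.64, 4.12 and 4.45 CPM, lay with those at 2 h or above them. CHAC1 reached the mean of 5 CPM required of named genes only through 8 h (means 4.07 CPM at 0 h, 3.49 at 2 h and 10.5 at 8 h). ATF4, the transcription factor that the integrated stress response induces, was at 172, 189 and 147 CPM at 2 h and 376, 228 and 393 CPM at 8 h (log2 fold change 0.97, SE 0.19, adjusted p = 0.0479). CHORDC1, a co-chaperone of HSP90, rose from 52.1, 64.3 and 47.4 to 90.7, 99.5 and 107 CPM (log2 fold change 0.86, SE 0.17, adjusted p = 0.0479). SLC7A6, a transporter of basic amino acids, rose by 0.82 on the log2 scale (SE 0.12, adjusted p = 0.0234), and AEN, a nuclease induced by p53, by 0.79 (SE 0.12, adjusted p = 0.0234). TSC1, which with TSC2 restrains the growth kinase complex mTORC1, was 0.80 higher (SE 0.13, adjusted p = 0.0282), and C12orf66, a subunit of the KICSTOR complex that also restrains mTORC1 when nutrients are scarce, was lower, at 13.01, 10.7 and 13.6 CPM at 2 h and 4.51, 5.78 and 5.09 CPM at 8 h (log2 fold change -1.28, SE 0.21, adjusted p = 0.0302). With the replicate block SLC7A6 and AEN still passed, while CHAC1 (adjusted p = 0.0570), ATF4 and CHORDC1 (both 0.0734) and TSC1 and C12orf66 (both 0.0528) did not.

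RNA processing and export genes formed the next group. NXF1, the receptor that carries mRNA through the nuclear pore, was at 37.5, 46.5 and 33.2 CPM at 2 h and 76.2, 71.2 and 106 CPM at 8 h (log2 fold change 1.11, SE 0.18, adjusted p = 0.0288). THOC6, a subunit of the THO complex that couples transcription to export, was at 2.64, 2.69 and 2.88 CPM at 2 h and 9.51, 6.96 and 15.7 CPM at 8 h (log2 fold change 1.96, SE 0.37, adjusted p = 0.0402). The 2 h and 8 h samples of both export genes did not overlap, which was a condition of naming. The 2 h samples of THOC6 lay within a narrow range. THOC6 reached the mean of 5 CPM required of named genes only through 8 h (means 1.89 CPM at 0 h, 2.74 at 2 h and 10.7 at 8 h). KIAA0907, an RNA-binding protein linked to splicing, was at 67.1, 64.2 and 61.6 CPM at 2 h and 119.8, 125 and 146 CPM at 8 h (log2 fold change 1.02, SE 0.15, adjusted p = 0.0234). LUC7L3, which takes part in splice-site recognition, rose by 0.63 on the log2 scale (adjusted p = 0.0479), RBM15, an RNA-binding protein of the RNA methylation machinery, by 0.82 (adjusted p = 0.0479), and JMJD6, a nuclear dioxygenase that modifies splicing factors, by 0.97 (adjusted p = 0.0213). SRSF5, a serine- and arginine-rich (SR) splicing factor, moved the other way, from 178, 204 and 184 CPM at 2 h to 134, 118 and 125 CPM at 8 h (log2 fold change -0.58, SE 0.11, adjusted p = 0.0395). Among the lower genes, RBM43, an RNA-binding protein, was at 22.3, 19.7 and 20.5 CPM at 2 h and 7.57, 8.66 and 7.38 CPM at 8 h (log2 fold change -1.40, SE 0.17, adjusted p = 0.0180), and ELAC1, an enzyme that processes tRNA ends, fell by 1.26 on the log2 scale (adjusted p = 0.0454). With the replicate block KIAA0907, JMJD6 and RBM43 still passed, while NXF1, THOC6 and RBM15 (adjusted p = 0.0528 each), SRSF5 (0.0703), ELAC1 (0.0716) and LUC7L3 (0.0749) did not.

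Transcription and chromatin regulators were spread over both directions. ZNF143, a zinc-finger factor that binds many promoters, was at 34.5, 31.3 and 31.5 CPM at 2 h and 60.98, 61.4 and 70.5 CPM at 8 h (log2 fold change 0.99, SE 0.14, adjusted p = 0.0234). The small MAF proteins MAFG and MAFK, partners of NRF2, were 0.83 and 0.90 higher on the log2 scale (adjusted p = 0.0403 and 0.0479). CHD2, a chromatin remodeller, was 0.85 higher (adjusted p = 0.0299), TFE3, a regulator of lysosome genes, 0.80 higher (adjusted p = 0.0395), and MAML1, the Notch coactivator, 0.72 higher (adjusted p = 0.0479). These 6 regulators were picked from the higher genes, so their shared direction is not a result. PRMT6, an arginine methyltransferase that acts on histones, was at 19.5, 19.8 and 22.1 CPM at 2 h and 6.81, 9.94 and 6.08 CPM at 8 h (log2 fold change -1.42, SE 0.19, adjusted p = 0.0180). IKZF2, a zinc-finger factor of the Ikaros family, was at 24.2, 20.1 and 24.99 CPM at 2 h and 10.7, 9.77 and 9.08 CPM at 8 h (log2 fold change -1.23, SE 0.20, adjusted p = 0.0282). HMGA2, a chromatin protein of embryonic and tumour cells, fell by 0.65 on the log2 scale (adjusted p = 0.0349), and BHLHE41, a repressor of the circadian clock, by 0.98 (adjusted p = 0.0234). Under the replicate block ZNF143, MAFG, PRMT6, IKZF2 and BHLHE41 still passed, while CHD2 and HMGA2 (adjusted p = 0.0528 each), TFE3 (0.0651), MAML1 (0.0754) and MAFK (0.0799) did not.

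The long non-coding RNAs and signalling genes among the higher named genes changed by similar amounts. SNHG7, a host gene of small nucleolar RNAs, was at 10.4, 9.97 and 9.97 CPM at 2 h and 24.5, 17.1 and 28.2 CPM at 8 h (log2 fold change 1.20, SE 0.20, adjusted p = 0.0302). MEG3, an imprinted long non-coding RNA, was at 13.4, 16.8 and 13.6 CPM at 2 h and 29.6, 26.4 and 33.1 CPM at 8 h (log2 fold change 1.02, SE 0.18, adjusted p = 0.0349), with the 0 h samples at 18.9, 23.3 and 27.04 CPM. RASSF1, a tumour suppressor of the Hippo pathway, rose by 1.19 on the log2 scale (SE 0.24, adjusted p = 0.0479), and ARHGAP23, which has a GTPase-activating domain, by 1.10 (SE 0.20, adjusted p = 0.0395). C5orf45, a protein-coding gene named MRNIP in GENCODE 29 and outside these kinds, rose by 1.03 (adjusted p = 0.0402). That the lowest 8 h sample lay above the highest 2 h sample in each of these 5 genes was a condition of naming. LINC00657, also known as NORAD, a long non-coding RNA that binds PUMILIO proteins, fell by 0.67 on the log2 scale (adjusted p = 0.0395). Under the replicate block C5orf45 still passed, while SNHG7 and MEG3 (adjusted p = 0.0528 each), LINC00657 (0.0590), RASSF1 (0.0671) and ARHGAP23 (0.0716) did not.

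Some of the higher names are uncertain because their reads are shared with other genes. POC1B-GALNT4, a read-through transcript, was at 0, 0 and 0.360 CPM at 2 h and 13.1, 1.95 and 13.4 CPM at 8 h, and at 13.2, 4.37 and 1.69 CPM at 0 h (adjusted p = 0.0455). A fold is not given for it, since the 2 h samples held 3.05 estimated counts at most. GALNT4, which overlaps it, was -2.03 on the log2 scale (adjusted p = 0.216), and POC1B was -0.27 (adjusted p = 0.503). The read-through names ANKHD1-EIF4EBP3 (1.42, adjusted p = 0.0479) and HSPE1-MOB4 (1.30, adjusted p = 0.0479) passed the test, whereas ANKHD1 (0.25, adjusted p = 0.372), HSPE1 (0.00, adjusted p = 0.999) and MOB4 (-0.38, adjusted p = 0.176) did not. The clone-named genes AP000648 and CTC-487M23 were 1.24 (adjusted p = 0.0234) and 1.12 (adjusted p = 0.0479). ZRSR1, which has near-identical relatives, was listed at 0 in all 0 h and 2 h samples and at 0.972, 1.53 and 1.70 CPM at 8 h. GENCODE 29 assigns its transcript to another gene, SRP19, so its identity is uncertain too. Under the replicate block AP000648 still passed, while POC1B-GALNT4 (adjusted p = 0.0528), CTC-487M23 (0.0704), ANKHD1-EIF4EBP3 and HSPE1-MOB4 (0.0734 each) and ZRSR1 (0.0749) did not.

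The inflammatory genes CXCL2 and PTX3 were lower at 8 h. CXCL2, a neutrophil-attracting chemokine on chromosome 4 (74097035 to 74099293, minus strand), was at 152, 148 and 199 CPM at 2 h and 53.8, 30.2 and 68.1 CPM at 8 h (log2 fold change -1.72, SE 0.33, adjusted p = 0.0421). Its 0 h samples, at 245, 94.4 and 167 CPM, reached below and above those of 2 h. PTX3, a secreted pentraxin of innate immunity, was at 51.2, 62.3 and 58.98 CPM at 2 h and 30.8, 27.3 and 30.4 CPM at 8 h (log2 fold change -0.96, SE 0.13, adjusted p = 0.0180). Its samples were tight at both times, and both genes also passed with the replicate block. CXCL3 (-1.23, adjusted p = 0.120), IL6 (-1.19, adjusted p = 0.229), CXCL8 (-0.65, adjusted p = 0.415) and the NF-kB regulator NFKBIZ (-1.05, adjusted p = 0.0554) had the same sign but did not pass the test.

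Several genes of S phase entry and DNA maintenance were among the lower genes. CCNE2, cyclin E2, which drives entry into S phase, was at 31.9, 22.7 and 32.4 CPM at 2 h and 8.54, 11.6 and 8.98 CPM at 8 h (log2 fold change -1.58, SE 0.20, adjusted p = 0.0180). PRIM1, the catalytic primase subunit, fell by 0.98 on the log2 scale (adjusted p = 0.0480), BARD1, the partner of BRCA1, by 0.97 (adjusted p = 0.0282), PALB2, which joins the BRCA proteins, by 0.69 (adjusted p = 0.0479), and ETAA1, an activator of the ATR kinase, by 0.77 (adjusted p = 0.0395). GTF2H3, a subunit of the repair and transcription factor TFIIH, fell by 0.73 (adjusted p = 0.0479). CCNE1, the other cyclin E, was -0.58 (adjusted p = 0.162) and did not pass. The replication licensing gene MCM2 was -0.09 (adjusted p = 0.843). The list of mitosis genes leaned the other way: of 35 tested, 0 passed with edgeR's quasi-likelihood test and the median log2 fold change was 0.27. In this test 8 were higher and 1 lower at an unadjusted p under 0.05, where 10.2% of all genes were higher and 9.27% lower. DESeq2 called 3 higher and 0 lower, and with the replicate block over the 6 samples 11 passed as higher and 1 as lower. Both alternatives also called many more of all genes, and the list was not tested against them. Among the mitosis genes the mitotic kinases PLK1 (0.84, adjusted p = 0.108) and AURKA (0.69, adjusted p = 0.106) and the activator CDC20 (0.89, adjusted p = 0.119) had the lowest unadjusted p. With the replicate block over the 9 samples CCNE2 still passed, while BARD1 (adjusted p = 0.0528), ETAA1 (0.0662) and PRIM1, PALB2 and GTF2H3 (0.0734 each) did not.

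The remaining lower named genes, and some lower genes beside them, have various roles. TTC30A, a component of the intraflagellar transport machinery, was at 16.3, 18.6 and 18.5 CPM at 2 h and 7.57, 6.45 and 6.18 CPM at 8 h (log2 fold change -1.40, SE 0.17, adjusted p = 0.0180). Its near-identical paralogue TTC30B fell by 1.06 on the log2 scale (adjusted p = 0.0479), and reads may have been divided between them, so each value is uncertain. BBS10, a chaperonin-like protein of the Bardet-Biedl group, fell by 0.94 (adjusted p = 0.0402). AMACR, a racemase of branched-chain fatty acid breakdown, fell by 1.12 (adjusted p = 0.0349). PLPP6, a lipid phosphatase, was at 7.17, 7.48 and 10.3 CPM at 2 h and 3.26, 2.80 and 2.29 CPM at 8 h (log2 fold change -1.56, SE 0.24, adjusted p = 0.0234). The other lower named genes were DHRS4-AS1 (-1.46, adjusted p = 0.0349), MBLAC2 (-1.27, adjusted p = 0.0479), PAQR8 (-1.25, adjusted p = 0.0479), SPIN4 (-1.21, adjusted p = 0.0479) and the clone-named RP11-27I1 (-1.61, adjusted p = 0.0480) and RP11-284F21 (-1.22, adjusted p = 0.0421). With the replicate block TTC30A and PLPP6 still passed, while the others of this paragraph did not (adjusted p = 0.0520 to 0.0755).

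In most of the genes that passed, the 0 h level lay near the 2 h level or beyond it. The position of the 0 h level was expressed on the log2 scale from 0 at the 2 h level to 1 at the 8 h level. Of the 116 genes, 92 had a 0 h level near the 2 h level or beyond it (a position under 0.25), 40 of the 52 higher and 52 of the 64 lower genes. In another 22 it lay between, and in 2 (POC1B-GALNT4 and ENSAP2, a processed pseudogene) it lay near the 8 h level (a position over 0.75). Among all genes tested 37.1% lay near 2 h or beyond it and 42.6% near 8 h. Both comparisons share the 2 h samples, and the calls require a difference between 2 h and 8 h, so these counts are a description. A 0 h level beyond that of 2 h means that the gene had moved in the same direction by 2 h. Examples are AP000648 (0.53 from 0 h to 2 h), THOC6 (0.51) and CHORDC1 (0.32), so the counts do not place the start of a change after 2 h. Between 2 h and 0 h, 0 genes (0%) passed with edgeR's quasi-likelihood test, 1239 (8.78%) had an unadjusted p under 0.05, and the smallest adjusted p was 0.118. Between 8 h and 0 h, 243 genes (1.72%) passed.

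**Figure D2:**
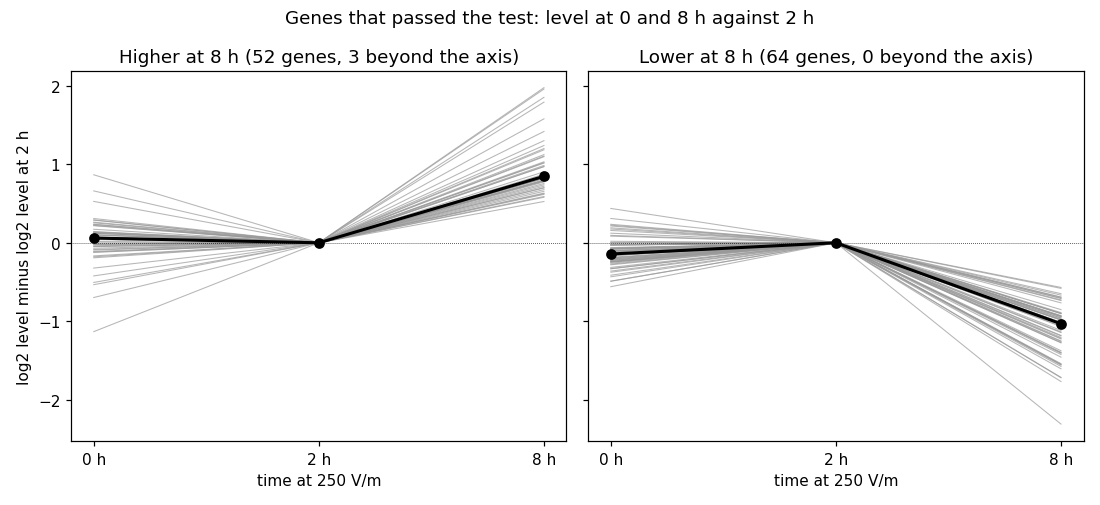
Log2 level at 0, 2 and 8 h minus the level at 2 h for the 52 higher genes (left, 3 beyond the axis) and the 64 lower genes (right); each grey line is the fitted change of 1 gene and the black line the median. The medians at 8 h are 0.85 and -1.03, while those at 0 h stay near 0.

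Of the 28 immediate early genes tested, 0 passed between 8 h and 2 h with edgeR's quasi-likelihood test. DESeq2, which called many more of all genes, called 1 higher. At an unadjusted p under 0.05, 5 were higher and 0 lower, where 10.2% of all genes were higher and 9.27% lower, and their median log2 fold change was 0.24, after -0.14 between 2 h and 0 h. A further set, which the study shows for U87 mg, also gave no call. EGR1, an immediate early transcription factor, was at 24.4, 22.6 and 27.98 CPM at 0 h, 74.97, 81.2 and 63.7 CPM at 2 h and 90.2, 27.3 and 120.1 CPM at 8 h. The 2 h samples lay above all 0 h samples, while at 8 h 1 sample was back near the 0 h level and the others were above the 2 h samples (1.55 from 0 h to 2 h, 0.11 from 2 h to 8 h, SE 0.36, adjusted p = 0.893). DDIT4, an inhibitor of mTORC1 induced by stress, was at 113, 79.00 and 158 CPM at 0 h, 37.2, 41.1 and 38.2 CPM at 2 h and 108, 36.4 and 37.01 CPM at 8 h. Only 8 h replicate 0 had returned to the 0 h range, and without that library its change from 2 h to 8 h turned from 0.64 (adjusted p = 0.356) to -0.08. NEAT1, the long non-coding RNA that builds paraspeckles, was at 494, 641 and 447 CPM at 0 h, 289, 321 and 253 CPM at 2 h and 192, 237 and 171 CPM at 8 h. Its 3 groups did not overlap. The steps of -0.87 from 0 h to 2 h and -0.52 from 2 h to 8 h on the log2 scale did not pass (adjusted p = 0.495 and 0.133), while the fall from 0 h to 8 h did (adjusted p = 0.00718). MIR22HG, the host of miR-22, was 0.79 from 0 h to 2 h and 0.40 from 2 h to 8 h (adjusted p = 0.303). ZNF623 (-0.12, adjusted p = 0.649) and CYB561D1 (-0.19, adjusted p = 0.606) did not pass from 2 h to 8 h. JUN, a partner of FOS in AP-1, was chosen after its values were seen: it was at 132, 153 and 175 CPM at 0 h, 107, 90.00 and 93.2 CPM at 2 h and 138, 103 and 101 CPM at 8 h (0.24, adjusted p = 0.408 from 2 h to 8 h).

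Gene lists for 31 pathways and families described the change across the cell. They named 958 different genes, of which 906 were tested and 15 passed, in 11 of the lists. Over all genes tested 0.822% passed, 0.369% higher and 0.454% lower, and the counts of 1 or 2 genes in a list were not tested against these shares. The alternatives quoted for lists (DESeq2, the replicate block over the 6 samples and the removal of the GC trend) called more of all genes. Their counts over all genes are in the last section, and no list was tested against them. At an unadjusted p under 0.05 in the same edgeR test 10.2% of all genes were higher and 9.27% lower. The unfolded protein and integrated stress response list had 2 of 40 genes higher (CHAC1 and ATF4) and none lower, with 8 higher and 2 lower at an unadjusted p under 0.05. Other members did not pass: DDIT3 was 0.67 (adjusted p = 0.240), ASNS -0.02 (adjusted p = 0.982), TRIB3 -0.11 (adjusted p = 0.892) and the endoplasmic reticulum chaperone HSPA5 -0.34 (adjusted p = 0.398). The heat shock and chaperone list had 1 of 27 genes higher (CHORDC1), with 10 higher and 0 lower at an unadjusted p under 0.05. The chaperone HSPH1 was at 257, 337 and 248 CPM at 2 h and 402, 449 and 484 CPM at 8 h (0.66, adjusted p = 0.0812), and its co-chaperone DNAJB1 was 0.58 (adjusted p = 0.0803). With the GC trend of each library removed, an alternative added after seeing the data, 7 of the list passed, all higher. That fit also called many more of all genes. The SR protein and splicing kinase list had 2 of 39 higher (KIAA0907 and LUC7L3) and 1 lower (SRSF5), with 13 higher and 2 lower at an unadjusted p under 0.05 (9 higher and 1 lower passed with the GC trend removed).

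Signalling lists gave single genes. The list of PI3K, AKT and mTOR genes had 1 of 34 higher (TSC1) and none lower: the regulatory subunit PIK3R1 was -0.58 (adjusted p = 0.0528), PIK3CA -0.29 (adjusted p = 0.314), AKT1 0.36 (adjusted p = 0.453) and MTOR 0.20 (adjusted p = 0.424). The DNA replication list had 1 of 36 lower (CCNE2), with 0 higher and 7 lower at an unadjusted p under 0.05. The lists of circadian clock genes (1 of 19, BHLHE41, lower) and cytokine and NF-kB genes (1 of 30, CXCL2, lower) had 1 call each, as had p53 targets (1 of 30, AEN, higher), snoRNA host genes (1 of 24, SNHG7, higher) and Notch genes (1 of 13, MAML1, higher). Nuclear long non-coding RNAs had MEG3 higher and LINC00657 lower of 13. Growth factor ligands and receptors had 0 of 28 called, with 1 higher and 10 lower at an unadjusted p under 0.05 and a median of -0.35. DESeq2, which called many more of all genes, called 4 of them lower, and the list was not tested against that share. EGFR, the epidermal growth factor receptor, was at 267, 288 and 289.9 CPM at 2 h and 194, 223 and 239 CPM at 8 h (-0.36, adjusted p = 0.130). Its samples did not overlap, but the difference did not pass.

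Ribosomal protein genes leaned to higher values at 8 h without a call. Of 79 tested, 0 passed with edgeR's quasi-likelihood test, and DESeq2 called 1. In the edgeR test 43 were higher and 0 lower at an unadjusted p under 0.05, where 10.2% of all genes were higher and 9.27% lower. Their median log2 fold change was 0.40 (range -0.09 to 0.62), against 0.04 for all genes, with -0.24 between 2 h and 0 h and 0.15 between 8 h and 0 h. With the replicate block over the 6 samples 52 passed, and with the GC trend removed the median was 0.30 and 3 passed. Both of these fits also called many more of all genes. Over all 20 lists with no call, 605 genes were tested, and 111 were higher and 36 lower at an unadjusted p under 0.05. DESeq2, which called many more of all genes, called 13 higher and 10 lower, and this was not tested against its share over all genes. They included actin cytoskeleton genes (39 tested, median 0.18), integrin and focal adhesion genes (31, median 0.11), matrix and protease genes (37, median 0.11) and ion channel and pump genes (26, median 0.03), which serve movement and excitability.

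**Figure D3:**
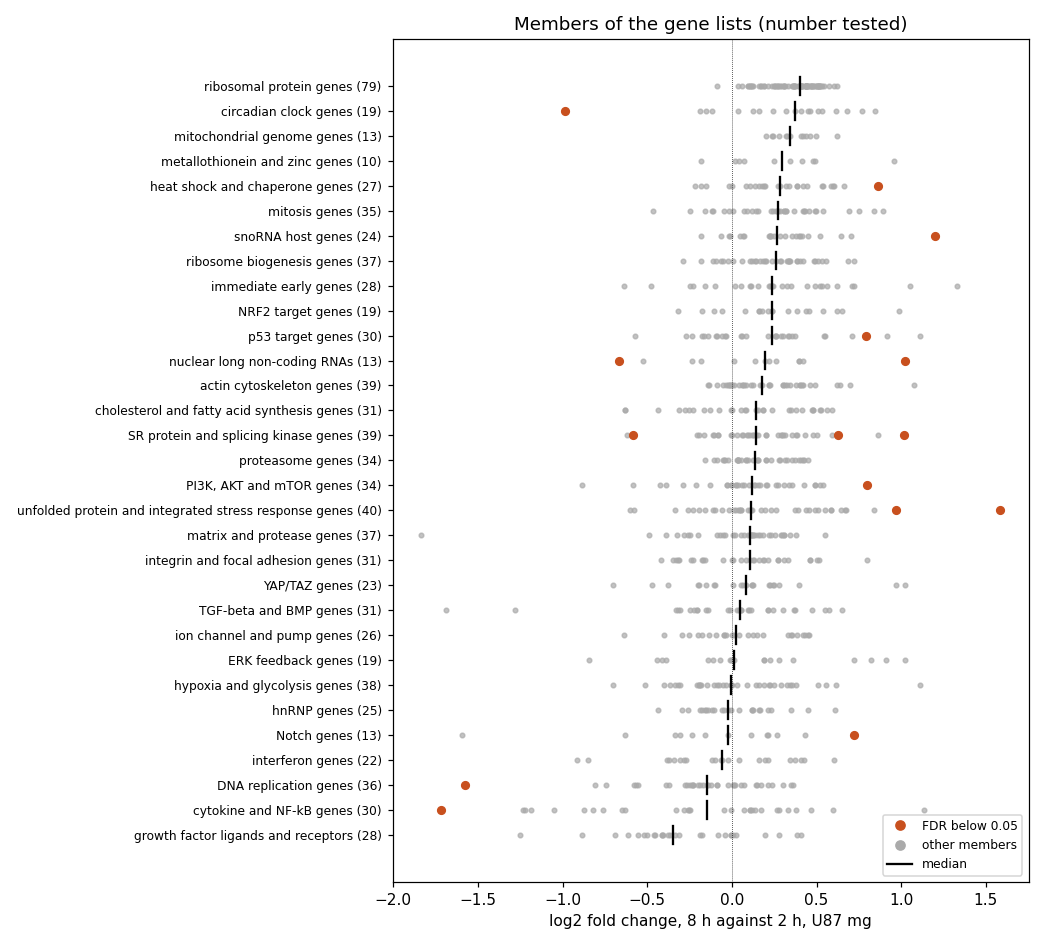
Log2 fold change between 8 h and 2 h of each tested member of the 31 gene lists (numbers tested in brackets); orange points passed the test, grey points did not, and the bar is the median of the list. The medians run from -0.35 for growth factor ligands and receptors to 0.40 for ribosomal protein genes.

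At the level of single transcripts nothing passed. Of 40613 transcripts, 0 (0%) passed with edgeR's quasi-likelihood test, 3453 (8.50%) had an unadjusted p under 0.05, and DESeq2 called 857. The spread between replicates was wider than for genes, with a common biological coefficient of variation of 0.76 against 0.18. In SRSF5, which lies on chromosome 14 (69726900 to 69772005, plus strand), protein-coding transcripts summed to 186, 206 and 205 TPM at 2 h and 112, 88.98 and 79.3 TPM at 8 h. Those annotated as retained introns summed to 73.02, 92.01 and 72.99 TPM at 2 h and 66.3, 81.7 and 86.1 TPM at 8 h. The fall of SRSF5 was thus in its coding transcripts, and the retained-intron share of its TPM was 26.4% ± 2.1 (SD, n = 3) at 2 h and 40.6% ± 6.9 at 8 h. CLK1, a kinase that phosphorylates SR proteins and whose own intron retention is regulated, had a retained-intron share of 24.5, 22.5 and 20.6% at 0 h, 8.98, 8.49 and 7.07% at 2 h and 14.5, 24.1 and 26.5% at 8 h. All 2 h samples lay below the samples of both other times. At 8 h replicate 0 lay below every 0 h sample and the other two lay within or above the 0 h range. Its gene total was -0.08 (adjusted p = 0.819).

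The share was computed for 5283 genes, and in 334 (6.32%) the 8 h samples lay above the 2 h samples without overlap, and in 271 (5.13%) below. Of 30 SR protein and splicing kinase genes, 2 were above (SRSF5 and CLK1) and 4 below (SRSF2, SRSF4, LUC7L2 and DDX17). For the list 6.67% were above, close to the share of all genes, and 13.3% were below, where 5.13% of all genes were. Neither share was tested. The separations of SRSF5 and CLK1 are descriptions of these genes, which were chosen after their values were seen. These shares rest on estimated assignment of reads to transcripts. The rise of ZNF143 included a short transcript with 2 exons annotated as a retained intron, at 12.1, 11.4 and 13.9 TPM at 2 h and 24.3, 25.3 and 37.5 TPM at 8 h, while its main coding transcript, with 16 exons, was at 12.4, 13.7 and 14.6 TPM at 2 h and 14.1, 21.6 and 23.3 TPM at 8 h. NXF1 rose in a coding transcript, at 14.8, 10.8 and 8.09 TPM at 2 h and 28.5, 23.4 and 36.6 TPM at 8 h.

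Base composition moved with the comparison. The median GC content of the main transcript was 51.7% in the higher genes, 41.9% in the lower genes and 47.1% in all genes tested (113 of the 116 had a value). Across 13995 genes the Spearman correlation of GC content with the log2 fold change was 0.46, a description over genes of the same 6 libraries. The median change ran from -0.21 in genes with at most 35% GC to 0.31 in those over 59%, and between 2 h and 0 h, which share the 2 h samples, from 0.26 to -0.39. The libraries differed in this respect within each group: the median deviation of high-GC genes (over 56%) minus that of low-GC genes (up to 41%) was -0.478, 0.593 and 0.513 at 0 h, -0.135, -0.269 and -0.535 at 2 h and 0.453, 0.002 and -0.130 at 8 h, for replicates 0, 1 and 2. From replicate 0 to replicate 2 this difference fell at 2 h and at 8 h, whereas at 0 h replicate 0 was the lowest. One-exon transcripts made up 3.92% of the higher genes, 16.1% of the lower genes and 6.15% of all. With the GC trend removed 564 genes passed, 108 of them among the 116, and 66.8% of the 564 were higher, against 44.8% of the 116. The part of base composition in single gene changes was not tested.

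**Figure D4:**
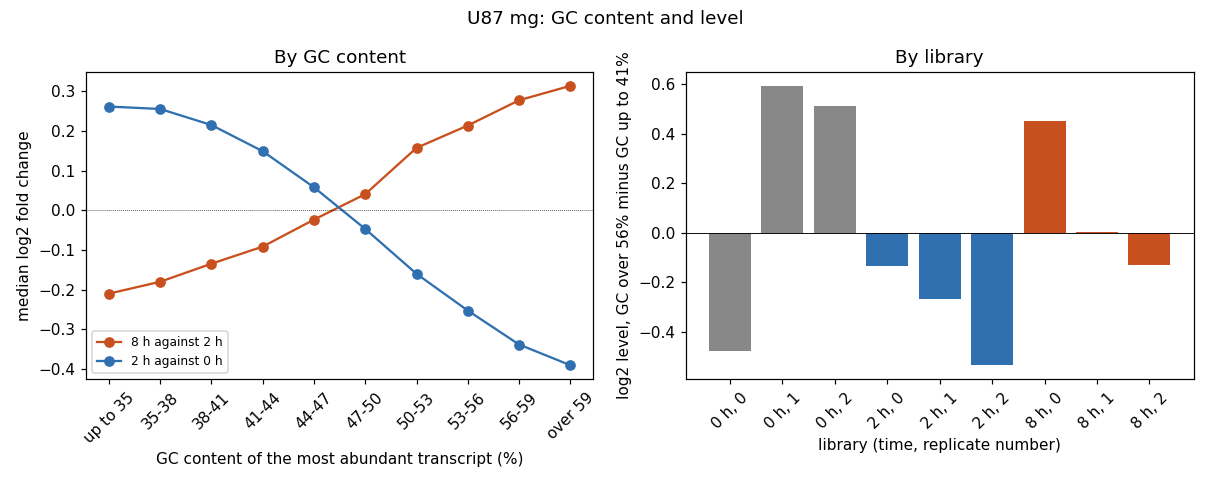
Left, median log2 fold change of the genes in each bin of GC content (percent of the most abundant transcript), for 8 h against 2 h (orange) and 2 h against 0 h (blue). Right, the difference between high-GC and low-GC genes in each of the 9 libraries, as bars from 0 on the log2 scale; the orange line climbs from -0.21 to 0.31, and all 3 libraries at 2 h lie below 0.

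Most genes that passed in U87 mg had the same sign in DAOY, whose samples took no part in the calls. Of the 50 higher genes tested there, 47 (94.0%) were also higher at 8 h than at 2 h, where 46.7% of all genes were, and 58 of 63 lower genes (92.1%) were also lower, where 53.3% of all were. In their own fit of 15396 genes, 244 DAOY genes (1.58%) passed, 103 (0.669%) higher and 141 (0.916%) lower. Of these, 23 were also among the U87 mg calls, 8 higher and 15 lower, all in the same direction, which is 20.4% of the 113 U87 mg genes tested in DAOY and 10.3% of the 224 DAOY genes tested in U87 mg. The higher ones were ZNF143 (0.99 in U87 mg and 1.40 in DAOY), PRDM10 (0.82 and 1.47), KIAA0907 (1.02 and 1.16), CHORDC1 (0.86 and 1.04), MAFG (0.83 and 1.01), CHD2 (0.85 and 0.91), ANKLE2 (0.63 and 0.81) and PEA15 (0.58 and 0.77). The lower ones included AMACR (-1.12 and -1.36), C12orf66 (-1.28 and -1.49), SEPSECS (-1.14 and -1.20), NUDT12 (-1.03 and -1.34) and THNSL1 (-1.18 and -1.87). CHAC1 was 1.58 in U87 mg and -0.05 in DAOY (SE 0.77, adjusted p = 0.981 in DAOY). It was barely detected in DAOY, at 1.29, 0.79 and 0.12 CPM at 2 h and 1.01, 1.04 and 0.10 CPM at 8 h. AEN was 0.79 in U87 mg and -0.34 in DAOY (adjusted p = 0.438 in DAOY).

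The difference between the lines was tested directly as an interaction over all 18 samples. Of the 116 genes 0 passed in edgeR's quasi-likelihood test of the difference, 24 (20.7%) had an unadjusted p under 0.05, where 11.05% of all genes had, and the smallest adjusted p was 0.130. CHAC1, HMGA2 and other genes whose DAOY value was near 0 are therefore not shown to differ between the lines. Across all genes 1 (0.00607%) passed the test of the difference, BDNF, which was not among the 116. BDNF, a neurotrophin that signals through the receptor TrkB, was at 36.2, 36.1 and 36.8 CPM at 2 h and 28.2, 27.9 and 26.04 CPM at 8 h in U87 mg (-0.41, adjusted p = 0.121). In DAOY it was at 4.26, 3.77 and 5.56 CPM at 2 h and 11.7, 14.5 and 14.9 CPM at 8 h (1.59, adjusted p = 0.0239). The groups did not overlap in either line, in opposite directions, and the difference was -2.03 (SE 0.24, adjusted p = 0.00300).

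**Figure D5:**
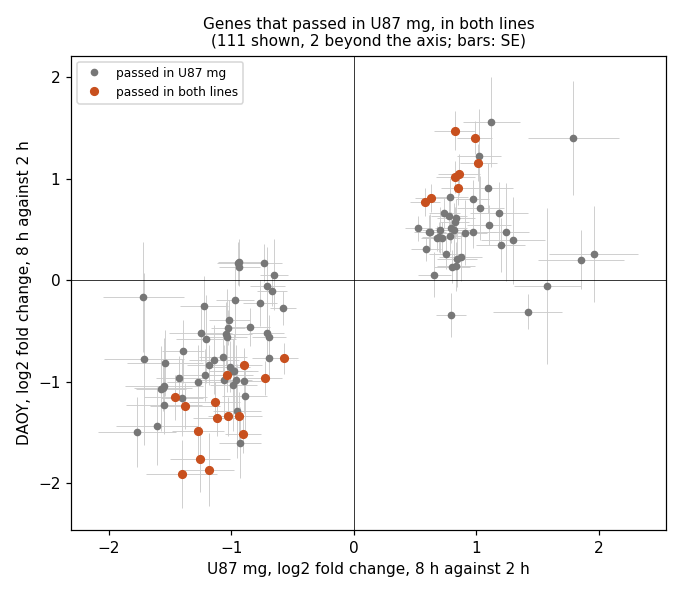
Log2 fold change between 8 h and 2 h in U87 mg (horizontal axis) and in DAOY (vertical axis) for the 113 genes that passed the test in U87 mg and were tested in DAOY, 2 of them beyond the axis; points are genes, bars are SE, and the 23 that passed in both lines are orange. The orange points lie in the upper right and lower left quadrants, and 3 higher and 5 lower genes of U87 mg have the other sign in DAOY.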

How the data were processed

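RNA-seq was measured in 18 samples, 3 biological replicates for each of 2 cell lines at 0, 2 and 8 h of a 250 V/m dcEF, of which 6 are compared here. Libraries were poly-A selected, stranded and sequenced single-end. The authors quantified transcripts of GENCODE 24 (GRCh38.p5) with Kallisto 0.43.0, and the deposited table gives estimated counts and TPM per transcript. Its columns of the authors' own Sleuth 0.28.1 comparisons (p-values, q-values and log2 fold changes, deposited as the authors computed them) were not used, and per-sample columns with no sample numbered 0. R 3.2.1 and FastQC 2.0.0 are also named in the submitters' processing notes.

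Here the 145326 transcript rows were summed over equal names to 32490 genes (49 names lie on more than 1 chromosome), rounded, filtered with filterByExpr, TMM-scaled and fitted with edgeR 4.0.16 (quasi-likelihood, time as a factor, 9 U87 mg samples) in R 4.3.3. P-values were adjusted by the Benjamini-Hochberg method over all features tested, and a gene passed at an adjusted p under 0.05. SE is the log2 fold change divided by the square root of F. DAOY was fitted alone, and the difference between lines over all 18 samples. DESeq2 1.42.0 and limma 3.58.1 served as alternatives, limma on log2(TPM + 1) and log2(TPM + 0.1). An exact test of 3 against 3 samples cannot go below p = 0.1, so none was used. In simulated counts made from these libraries the fit recovered 57.5% of 200 genes changed by a log2 value of 1 and 94.9% of 198 changed by 2.

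Named genes passed the test, had a mean of at least 5 CPM and no overlap between 2 h and 8 h samples: the 15 with the largest fold change in each direction, of 47 higher and 56 lower that qualified. THOC6, CHAC1 and CTC-487M23 reached that mean only through their 8 h samples. Genes of the lists and 6 genes that the study shows for U87 mg were added. The samples, lists and genes were chosen with earlier results of these data known. Same-numbered 2 h and 8 h samples deviated together (r = 0.263, 0.146 and 0.192 for replicates 0, 1 and 2). The blocked fits take the replicate number as a pairing, which the labels do not state, and why these samples deviated together was not tested. The 0 h samples were not part of this check, although the block over the 9 samples also pairs them by number. The calls come from the fit without the block, and the report gives the blocked adjusted p where it ends a call. GENCODE 29 (144134 transcripts matched, 99.2%) gave lengths, GC content and gene positions on GRCh38. Estimated counts limit precision, since reads shared by overlapping or near-identical genes are divided by a model. Whether counting used the strand is not given in the sources used here. Some genes that were analysed are not reported here.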

Additional observations from a re-analysis of the deposited data

Results flagged for a closer look

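BDNF stood out because its 8 h against 2 h change differed between the cell lines in a direct test of the difference, where it was the one gene of those tested that passed. It encodes a neurotrophin and lies on chromosome 11 (27654893 to 27722058, minus strand). The difference, U87 mg minus DAOY, was -2.03 on the log2 scale (SE 0.24, adjusted p = 0.00300, edgeR's quasi-likelihood test over 18 samples). It lay between -2.21 and -1.90 under the alternatives, with an adjusted p of 0.0456 with the replicate block and 1.10e-12 with DESeq2. In U87 mg BDNF was lower in 3 of 3 samples at 8 h and in DAOY higher in 3 of 3. The U87 mg change alone did not pass (-0.41, adjusted p = 0.121).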

How the results depend on the processing

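In the main fit 116 of 14106 genes (0.822%) passed. These 116 became 575 with DESeq2, 725 with no filter on low counts, 483 with only the 6 samples compared, 36 with the replicate block over 9 samples and 3 with limma at either pseudocount. Alternatives chosen after seeing the data gave 2321 (replicate block, 6 samples) and 564 (GC trend removed). Leaving out 1 library gave 0 to 830. The 56 with a log2 fold change of at least 1 became 87 (DESeq2), 224 (no filter), 103 (6 samples), 24 (replicate block), 3 and 3 (limma) and 212 (replicate block, 6 samples), and 0 to 122 without 1 library. Upper-quartile scaling (140 genes, 30.7% higher), a filter of 10 counts in every sample (165, 33.3% higher), all 18 samples (92) and thinned libraries (89) stayed within 1.5 times of the 116. The replicate block left 30.6% of its calls higher, against 44.8%. The 0 transcripts became 857 with DESeq2 (468 at a log2 fold change of at least 1), 7 with no filter, 1 with at least 10 counts, 19 and 42 with limma, 15 with all 18 samples and 0 to 4 without 1 library. The 1 gene that differed between the lines became 88 with DESeq2, 175 with no filter, 2 with the replicate block and 1 to 3 without 1 library. Directions reversed for 3 genes that had not passed. EGR1 (0.11) turned to -0.0435 with the replicate block, -0.21 and -0.22 with limma, -0.31 to 0.52 without 1 library, -0.10 with the replicate block over 6 samples and -0.0537 with the GC trend removed, DDIT4 (0.64) ranged from -0.0787 (without 8 h replicate 0) to 0.904 without 1 library, and ZNF623 (-0.12) turned to 0.0137 and 0.0154 with limma. Of 959 values of 46 named results, 567 stayed on their side of the threshold with their direction, 379 lost the call, 4 gained one and 9 reversed. The cause was not tested. With 3 samples a group and 8341976 to 15610886 estimated counts per library, changes under a log2 value of 1 were only partly detectable.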
